A study of Homo sapiens with 36 samples.

Results

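The sites described here are methylated adenosines that the authors annotated to a 5'UTR and that lie in a DRACH motif, where D is A, G or T, R is A or G, and H is A, C or T. They were taken from each of 3 deposited tables by the table's region label and by the 5-base motif centred on the adenosine. The HEK293T table held 1072 such sites in 623 genes, which were 1.88% of its 57011 sites and 8.66% of its 5'UTR sites. The table for BE(2)-C without ATRA held 136 in 87 genes, or 0.595% of 22855 sites. The table for BE(2)-C with ATRA held 128 in 79 genes, or 0.609% of 21031 sites. The rule itself used no measured level or change, but it was chosen with earlier results of these data known. The tables list a site only if it was called in at least 1 group, so sites methylated below the authors' calling threshold in both groups are outside the description. A site called in only 1 group is listed through that group. Listing can therefore bear on the direction of changes and on which sites pass a test, which was not tested.

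N6-methyladenosine (m6A) is placed inside messenger RNAs mainly by METTL3 with METTL14, which prefer adenosines in a DRACH context and act mostly in coding sequence and 3'UTRs. PCIF1 instead methylates the adenosine next to the cap, giving m6Am, and acts only at the first transcribed nucleotide. A 5'UTR site in DRACH can therefore resemble an internal m6A by its motif and a cap-adjacent site by its position, and m6ACE, which crosslinks an antibody to the methylated base and trims the RNA with an exonuclease, detects both marks.

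The series compared a scrambled siRNA (siScram) with siRNA against PCIF1 (siPcif1) in 3 contexts, with 3 replicates of each group. It holds 36 samples in 12 groups, of which 18 are m6ACE libraries and 18 input libraries. BE(2)-C, a human neuroblastoma line, was analysed without retinoic acid and after 4 days of 10 uM all-trans retinoic acid (ATRA), which makes such cells differentiate. HEK293T is a human embryonic kidney line. The labels give a wild-type genotype and siRNA for 24 h for every sample, but their growth and treatment text is written for BE(2)-C, so how HEK293T was treated is not known here. One BE(2)-C table carries DMSO in its name, while its sample labels say only that no ATRA was given. The value of each m6ACE library is a relative methylation level (RML), a ratio. Its formula and the depth behind each site are unknown here, so no counting interval was computed. RML is not an expression level, so neither the loss of PCIF1 nor the identity of the cells could be checked from it. In such bulk samples a lower level in all cells and a change in fewer cells cannot be told apart. Whether replicates were separate cultures is not stated, and p-values cover only the spread between these samples, which can be technical.

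The sequences of 13 sites near RefSeq starts are printed as examples from the start-proximal sites described one by one below, some in 1 context and some in all 3. Each is 21 bases of the RefSeq promoter table (GRCh38.p14), 5' to 3' on the gene's strand, with the DRACH motif in capitals and the methylated adenosine at its centre. Of the members, 184 in HEK293T, 17 in BE(2)-C without ATRA and 15 with ATRA lay in such a window.
SDHA, chr5:218314-218334 (+), 4 nt: ctgcgcagGGACTggcgggac
TES, chr7:116210539-116210559 (+), 10 nt: gctgcggcGGACTgggcggcg
LLPH, chr12:66130739-66130759 (-), 1 nt: aagtgcaaAGACTtccggtcg
PDXK, chr21:43719091-43719111 (+), -28 nt: gccgcgcgGAACTcgcgggtt
TMEM165, chr4:55395948-55395968 (+), 1 nt: cagctggcTGACTccagttta
ZNF749, chr19:57435315-57435335 (+), 0 nt: tgtgggcgGGACTtctggcgg
MTFP1, chr22:30425770-30425790 (+), 12 nt: tcggcgcgGGACTttcggcgg
ADK, chr10:74151211-74151231 (+), 0 nt: agggggcgGGACCagagagtg
ARL2, chr11:65014158-65014178 (+), 8 nt: gggtcccgGGACTgggaagaa
MTHFS, chr15:79897001-79897021 (-), 3 nt: cgagggcgGGACTggactcgg
NDUFA13, chr19:19516204-19516224 (+), -11 nt: tccgcccgGGACCggaagtgt
SERF2, chr15:43792304-43792324 (+), -6 nt: aaggggcgGGACCtgcaacgt
GNG2, chr14:51860599-51860619 (+), -3 nt: ctgggtggGGACTagtccctg
The last number before each sequence is the distance of the adenosine downstream (or, if negative, upstream) of the nearest RefSeq start of that gene. Among these 13, the base before the motif's adenosine was A only in PDXK.

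In all 3 contexts, GGACT was the commonest motif, with 379 sites (35.4%) in HEK293T, 47 (34.6%) in BE(2)-C without ATRA and 42 (32.8%) with ATRA. The family GGACH made up 56.2% of the HEK293T sites, against 47.9% of the 23952 DRACH sites in coding sequence and 3'UTRs there, called internal DRACH sites below. In the BE(2)-C tables the same shares were 53.7% against 46.9% without ATRA and 58.6% against 51% with ATRA.

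In genomic distance the 5'UTR DRACH sites lay mostly far from RefSeq starts, unlike other 5'UTR sites. Introns are counted in these distances, so some sites may lie nearer the start along the spliced RNA. Of the 1028 HEK293T sites with a RefSeq distance, 141 (13.7%) lay 0 to 50 nt downstream of a start and 784 (76.3%) lay over 100 nt from any start. Of 11100 5'UTR sites outside DRACH, 62.2% lay 0 to 50 nt downstream and 11.1% over 100 nt away. The BE(2)-C tables held 12 and 11 DRACH sites at 0 to 50 nt, without and with ATRA, and 111 and 107 over 100 nt away. In HEK293T 435 genes had 1 member and 37 had 5 or more. SLIT2, a secreted axon guidance ligand, had 14, and BRD2, a bromodomain protein, had 20. Of the BRD2 sites 13 lie on alternate contigs that hold other versions of its locus, so its reads may have been divided between them. In all, 29 HEK293T members lay on alternate contigs, and none in the BE(2)-C tables.

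In siScram the DRACH sites of the 5'UTR stood at the level of internal DRACH sites, well below 5'UTR sites outside DRACH. The median HEK293T RML was 2.54, 2.37 and 2.34 in siScram replicates 1 to 3 and 2.07, 2.15 and 2.50 in siPcif1. For internal DRACH sites it was 2.29, 2.21 and 2.24 in siScram. On the log2(RML + pseudocount) scale, with the 5th percentile of the table as pseudocount, the members exceeded internal DRACH sites by 0.09 ± 0.041 (SD, n = 3). They lay 0.78 ± 0.042 below 5'UTR sites outside DRACH. Over single sites the mean siScram RML ran from 0.0352 to 32.4, and 60 of 1072 (5.60%) were above 10, against 21.6% of 5'UTR sites outside DRACH.

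The same order held in BE(2)-C. Without ATRA the median RML of the members was 2.69, 3.7 and 4.68 in siScram and 1.96, 2.51 and 2.22 in siPcif1, and with ATRA it was 3.58, 4.77 and 3.17 against 4.45, 3.81 and 3.79. The siPcif1 libraries were all lower without ATRA and overlapped siScram with ATRA. Relative to internal DRACH sites the siScram level was 0.04 ± 0.067 without ATRA and -0.05 ± 0.060 with ATRA (SD, n = 3). Relative to 5'UTR sites outside DRACH it was -0.69 ± 0.048 and -0.81 ± 0.064. The tables may be scaled separately, so RML levels are not compared between them.

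Across all distances the HEK293T members had similar levels with both siRNAs. Their median changed by -0.10 (log2, siPcif1 minus siScram), with siPcif1 libraries overlapping siScram, and 607 of 1072 sites (56.6%) had a negative change, as did 57.5% of all sites. Against internal DRACH sites the siPcif1 level was -0.02 ± 0.033 and the siScram level 0.09 ± 0.041 (SD, n = 3), and here the siPcif1 libraries were all lower. limma, fitted across all sites, called 0 members lower and 0 higher at an adjusted p under 0.05, as was 0% of all sites in either direction. At an unadjusted p under 0.05, 96 members were lower, or 8.96% where all sites gave 9.31%, and 19 were higher, or 1.77% against 2.79%. All siPcif1 libraries lay below all siScram libraries at 122 sites (11.4%), where the table as a whole gave 11.7%. All lay above at 47 (4.38%), against 4.96%. These shares were near the background of the table.

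**Figure D1:**
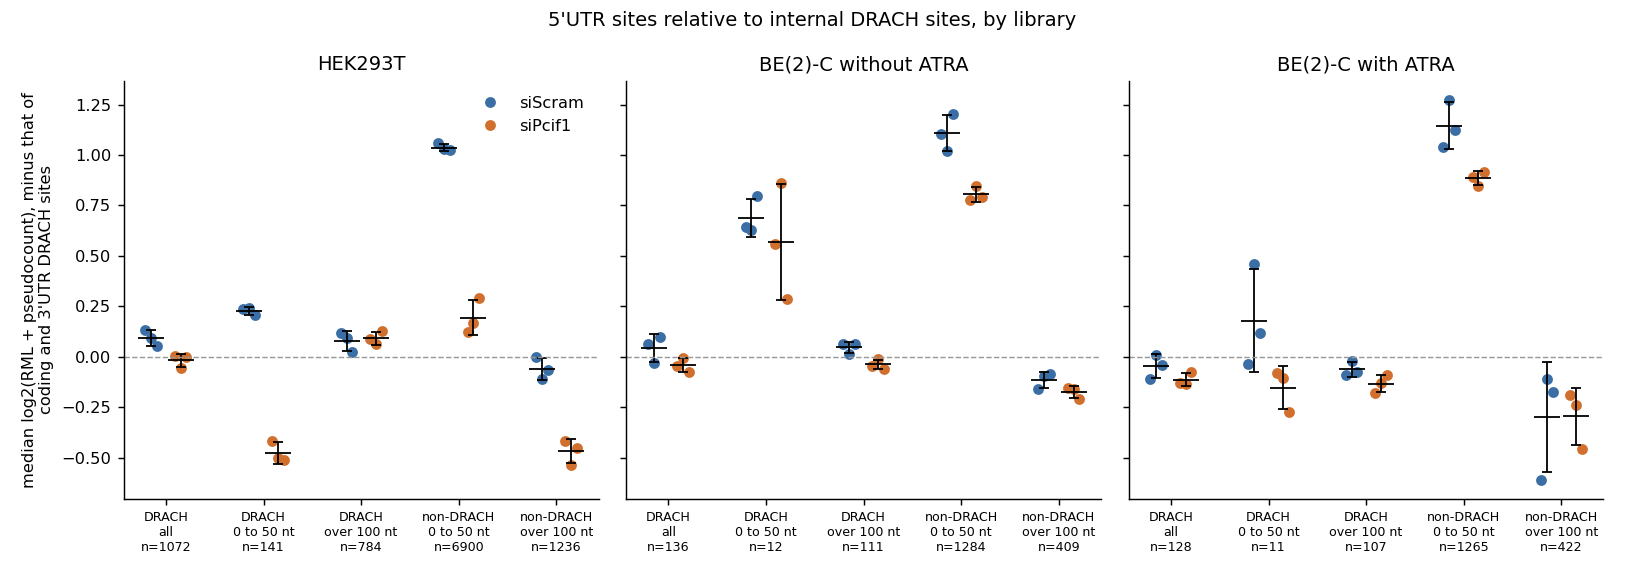
Median log2(RML + pseudocount) of 5'UTR site sets in each library, minus that of internal DRACH sites of the same library, in 3 contexts. Points are libraries and bars the mean ± SD of 3. In HEK293T the DRACH sites at 0 to 50 nt moved from 0.23 to -0.48, whereas those over 100 nt from any start stayed at 0.08 and 0.09.

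Within HEK293T the members differed by position. At 0 to 50 nt downstream of a start the 141 members had a median RML of 2.75, 2.67 and 2.63 in siScram and 1.47, 1.49 and 1.66 in siPcif1. The siPcif1 libraries were all lower, and the median was 1.62-fold lower on the log2(RML + pseudocount) scale. Of these sites 125 had a negative change, and libraries did not overlap at 62 (44%) in the lower direction and at 0 in the higher, where all sites of the table gave 11.7% and 4.96%. The 784 members over 100 nt from any start had a median RML of 2.51, 2.37 and 2.28 in siScram and 2.2, 2.35 and 2.75 in siPcif1. There the groups overlapped, 382 sites had a negative change, and libraries did not overlap at 37 (4.72%) in the lower and 43 in the higher direction, with the same 11.7% and 4.96% in the table.

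On the scale relative to internal DRACH sites, the sites at 0 to 50 nt went from 0.23 ± 0.020 to -0.48 ± 0.053 (SD, n = 3), a change of -0.70. The distal sites went from 0.08 ± 0.050 to 0.09 ± 0.033, a change of 0.01. This split by distance is a description without a test, and RefSeq starts may not be those used in these cells. It follows genomic distance, which need not be the distance from the cap along the spliced RNA. The near-start value stayed between -0.73 and -0.69 when any 1 library was left out.

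By finer distance the negative changes lay around the start. The median change of the 67 sites at 0 to 10 nt was -0.80, that of the 59 sites up to 100 nt upstream was -0.61, and that of the 74 sites at 11 to 50 nt was -0.42. Beyond, the 44 sites at 51 to 100 nt had -0.07, the 331 sites up to 500 nt had -0.02 and the 392 farther downstream had 0.03. The 61 sites over 100 nt upstream had 0.12. Levels in siScram were high on both sides of the start, with a median RML of 4.54 ± 0.33 (SD, n = 3) at 0 to 10 nt and 4.38 ± 0.77 up to 100 nt upstream, which overlapped. They were 1.59 ± 0.057 at 11 to 50 nt and 1.03 ± 0.088 at 51 to 100 nt. Beyond 500 nt the median was 2.71 ± 0.12.

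DRACH and other 5'UTR sites had similar changes at the start and different ones away from it. The median change of 3844 sites outside DRACH within 10 nt was -0.79, close to the DRACH value. For the 3056 outside DRACH at 11 to 50 nt it was -0.70, against -0.42 in DRACH. Farther away it was -0.30 over the 551 sites up to 500 nt and -0.36 over the 490 beyond, where the DRACH medians were near 0. Set against internal DRACH sites, the 1236 non-DRACH sites over 100 nt from any start went from -0.06 ± 0.055 to -0.47 ± 0.061 (SD, n = 3), with siPcif1 libraries all lower. Within genes holding both kinds, 284 genes had a distal DRACH member, and the other 5'UTR sites of the gene, at any distance, changed more negatively in 218 of them (76.8%). When those other sites were also over 100 nt from any start, this was so in 103 of 177 genes (58.2%), with median changes of 0.04 in DRACH and -0.12 outside it. In the 115 genes with a DRACH member at 0 to 50 nt it was so in 63 (54.8%), and in 51.5% of such genes with the other sites also at 0 to 50 nt. These comparisons were not tested over the members.

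**Figure D2:**
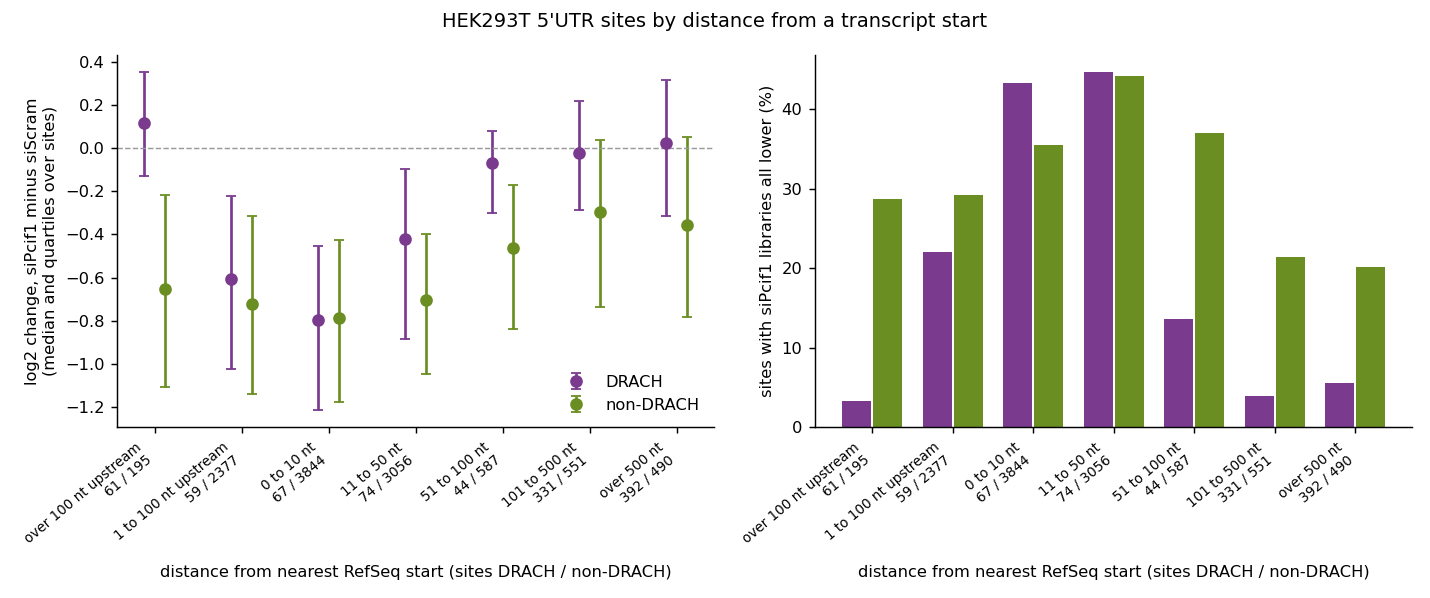
HEK293T 5'UTR sites in DRACH and outside it, by genomic distance from the nearest RefSeq start. On the left are the median and quartiles over sites of the log2 change (siPcif1 minus siScram), and on the right the percentage of sites at which the 3 siPcif1 libraries all lay below siScram. DRACH sites go from -0.80 at 0 to 10 nt to 0.03 beyond 500 nt.

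By motif, the split into GGACH and other members over all distances did not separate the siRNAs in HEK293T. There the 603 GGACH members changed by -0.22 and the 469 others by 0.01, both with overlapping libraries. Of the single motifs, GGACC (124 sites) changed by -0.23 with siPcif1 libraries all lower. AGACA (25 sites) changed by 0.37 with siPcif1 libraries all higher, and the libraries overlapped for every other motif. Near the start both kinds were lower in every siPcif1 library, by -0.79 for 92 GGACH sites and -0.55 for 49 others. Over 100 nt away they changed by -0.07 (416 sites) and 0.09 (368 sites), and libraries overlapped. Only 9 near-start members had A as the base before the methylated adenosine, and their change was -0.07, against -0.79 for the 132 with G. With 9 sites this is given as a value only. In BE(2)-C without ATRA 73 GGACH members changed by -0.51, with siPcif1 libraries all lower, and 63 others by -0.54, with overlap. With ATRA the 53 members outside GGACH changed by 0.23 and the 75 in GGACH by close to 0, and both overlapped.

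Ranked by mean log2 level over the 6 libraries of both groups, the 5 highest HEK293T members at 0 to 50 nt downstream of the gene start were those of SDHA, TES, RPL23A, LLPH and ADK. Upstream sites were not ranked here, such as that of NDUFA13 at -11 nt, with a mean RML of 19.7 in either group. SDHA, the flavoprotein subunit of succinate dehydrogenase, had its site at chr5:218324 (hg38). Its RML was 20.7, 30.7 and 30.7 in siScram and 9.31, 8.80 and 8.62 in siPcif1, so the groups did not overlap. The log2 change was -1.56 ± 0.41 (SE), with a limma adjusted p of 0.204. At RPL23A, a large-subunit ribosomal protein (chr17:28719992, 7 nt), RML was 18.3, 15.8 and 22.9 against 5.36, 10.2 and 8.50, again without overlap (limma adjusted p = 0.302).

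TES encodes testin, a focal adhesion protein, and its site (chr7:116210549) had RML of 9.46, 51.6 and 22.4 in siScram and 2.94, 8.97 and 9.57 in siPcif1. The groups overlapped, since the highest siPcif1 library lay just above the lowest siScram one. LLPH (chr12:66130749) had 8.39, 19.7 and 32.4 against 4.41, 7.47 and 14.4, which overlapped. The site at the start of ADK, which encodes adenosine kinase (chr10:74151221), went the other way in its mean, with 27.5, 31.1 and 4.56 in siScram and 23.5, 8.97 and 40 in siPcif1. The libraries of each group lay far apart, and the change was 0.36 ± 0.78 (SE, limma adjusted p = 0.920).

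By the same mean over both groups, the 5 highest members over 100 nt downstream were those of SLIT2, SAP18, PNMA1, HS3ST3A1 and PCDH7. A mean over both groups ranks a site lower if it is low in siPcif1. By siScram alone the highest of all members was that of MYC, also distal, with a mean RML of 32.4, and its groups did not overlap. SLIT2 had RML of 23.9, 26.6 and 24.4 in siScram and 15.7, 28.9 and 33.6 in siPcif1 at chr4:20252421, 516 nt from the start. SAP18, a subunit of a histone deacetylase complex, had 31, 25.3 and 15.4 against 16.2, 31.8 and 14.3 (chr13:21140542, 423 nt). PNMA1, named as a paraneoplastic antigen, had 21.2, 34.9 and 15.7 against 28.1, 10.4 and 11.3. HS3ST3A1, a heparan sulfate sulfotransferase, had 17.2, 26 and 19.4 against 6.61, 16.9 and 17.3, and the protocadherin gene PCDH7 had 24.9, 19.6 and 10.3 against 9.96, 10.6 and 31.2. At each of these 5 sites at least 1 siPcif1 library lay within the siScram range or above it.

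**Figure D3:**
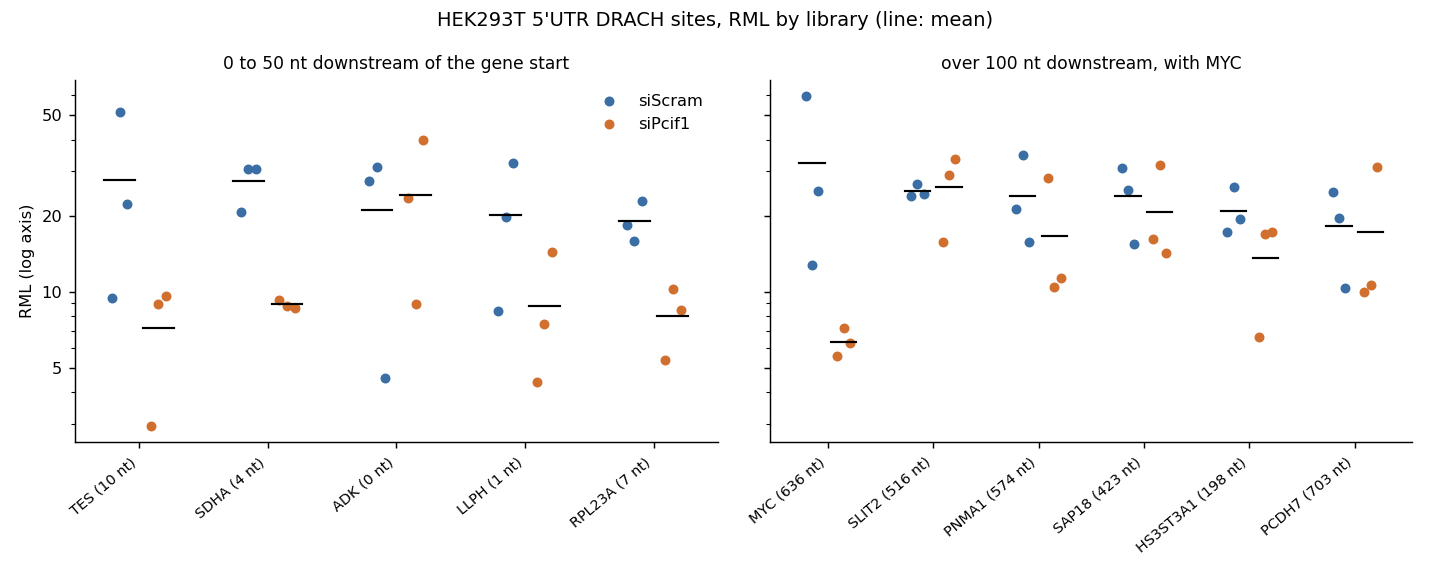
RML on a log axis in each HEK293T library (points) with the group mean (line), for the 5 members of highest mean log2 level over the 6 libraries at 0 to 50 nt downstream of the gene start, the 5 highest over 100 nt downstream, and MYC, the highest in siScram. The groups do not overlap at SDHA, RPL23A and MYC, and they overlap at the other sites drawn.

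Among members at or above the median level whose groups did not overlap, the 5 largest decreases in HEK293T were at PDXK, MYC, TMEM165, ZNF749 and MTFP1. PDXK, pyridoxal kinase (chr21:43719101), had RML of 7.63, 14.4 and 14 in siScram and 2.2, 1.79 and 3.12 in siPcif1, a change of -2.18 ± 0.43 (SE, limma adjusted p = 0.158). MTFP1, a mitochondrial fission protein (chr22:30425780), had 6.53, 6.36 and 6.81 against 1.73, 1.19 and 2.89, with the tightest siScram values of the 5. ZNF749, a zinc finger gene (chr19:57435325), had 16.8, 12.9 and 11.4 against 2.94, 1.79 and 5.62.

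TMEM165, a Golgi membrane protein (chr4:55395958), had 21.4, 4.05 and 4.16 against 1.96, 0.734 and 2.34, so its siScram mean rested on 1 high library. MYC, the transcription factor gene, differed from the other 4 in lying 636 nt from its start, with RML of 59.5, 12.7 and 25 against 5.58, 7.17 and 6.24. Its siScram libraries varied widely, yet the lowest of them exceeded every siPcif1 library. The adjusted p of these 5 ranged from 0.158 to 0.261 in limma, so none passed.

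The 3 largest increases by the same rule lay far from a start. Since the level in that rule is the mean over both groups, a site can pass it through siPcif1, and the siScram means of NR2F1 (2.52) and MSANTD4 (1.79) were below 2.57, the median of the members' siScram means. NR2F1, a nuclear receptor gene (chr5:93584045, 823 nt), had 3.36, 2.73 and 1.46 in siScram and 4.41, 3.59 and 16.2 in siPcif1, so its mean rested on 1 siPcif1 library. FAM43A (chr3:194686154, 271 nt) had 8.39, 6.58 and 3.73 against 10.3, 15.2 and 17.5. MSANTD4 (chr11:106010935, 11305 nt) had 1.91, 1.14 and 2.34 against 2.35, 4.04 and 7.08. The smallest of their limma adjusted p-values was 0.340.

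PCF11, the cleavage and termination factor named in the series' title, had 1 member in HEK293T and none in the BE(2)-C tables. Its site (chr11:83157416, 285 nt) had RML of 3.05, 3.49 and 2.63 in siScram and 4.16, 3.33 and 5.79 in siPcif1. The groups overlapped, with a change of 0.47 ± 0.38 (SE, limma adjusted p = 0.707). PCIF1, METTL3, FTO and MYCN held no member. ALKBH5, an m6A demethylase gene, had 2 members 318 and 391 nt from its start, and their changes were -0.02 and -0.26.

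By gene group, the nuclear genes of oxidative phosphorylation had 15 members in 13 HEK293T genes. Among these sites 12 were negative, the median change was -0.56, and libraries did not overlap at 8, all lower, where the whole table gave 11.7%. Beside this, 9 of the 15 lay 0 to 50 nt from a start, against 13.7% of the members with a distance. NDUFA13, a complex I subunit in the same list, had RML of 15.3, 25.4 and 18.4 against 15.4, 24.7 and 19. The part of position in the group's median was not tested.

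Cytosolic ribosomal protein genes had 13 members in 13 genes, 10 of them negative, with -0.14 as median change, and 5 with all siPcif1 libraries lower, against 11.7% of the table. Of these 13 members 5 lay 0 to 50 nt from a start. RPL23A above was among them, and RPS15 had 15.5, 16.6 and 11.4 against 19.1, 9.19 and 12.3. Mitochondrial ribosomal protein genes had 13 members in 8 genes with a median of -0.21, and MRPL11, 6 nt from its start, had 4.72, 9.41 and 12.4 against 2.69, 8.22 and 8.64. Solute carrier genes, with 48 members in 24 genes, had a median of 0.05, and 22 were negative. ZNF zinc finger genes had 22 members in 10 genes with a median of 0.10, and 11 were negative. Over all sites of the HEK293T table the median change was -0.08, and 0 members of any list passed limma's adjusted threshold.

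The remaining lists were small in HEK293T. Splicing factors had 11 members with a median change of -0.12, among them HNRNPDL with 11.3, 6.45 and 6.14 in siScram and 3.23, 3.05 and 5.93 in siPcif1, which did not overlap. Chaperones had 10 members with a median of 0.02, and DNAJB11, an endoplasmic reticulum chaperone whose site is at its start, had 4.48, 4.55 and 3.40 against 1.76, 2.51 and 4.74. Cleavage, polyadenylation and termination genes had 6, of which 5 lay in RBBP6, and translation factors had 5 with a median of 0.30. DEAD- and DEAH-box helicases had 4, retinoic acid response genes 4, all in RARA, and m6A genes 3. Histones, proteasome subunits and adrenergic regulators had 1 each, and neurite genes 0.

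The other leading members of these lists overlapped between the groups. They were MRPL40 with a change of -0.13, ZNF263 with 0.25, EIF2B4 with -0.69, EIF4E2 with 0.34 and U2AF2 with -0.12. SLC35A4 and SLC35E4, of the nucleotide sugar transporter family, had -0.17 and -0.09. DNAJA1, a cytosolic chaperone, had 1.19, where RML was 16.8, 1.77 and 3.95 in siScram and 8.82, 12.6 and 15 in siPcif1, so 1 siScram library lay above every siPcif1 one. RBBP6, a ubiquitin ligase tied to 3' end processing, had -0.69 and -0.73 at its 2 highest sites. The RNA helicase gene DDX6 had -0.91 and 0.36, and RARA had -0.85 and -0.29.

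In BE(2)-C without ATRA nearly every member had a negative change, as did the rest of the table. The median of the members changed by -0.60 and that of internal DRACH sites by -0.51, with siPcif1 libraries all lower for both. Negative changes were found at 133 of 136 members (97.8%) and at 95.7% of internal DRACH sites. By the authors' site calls, 125 members were called in siScram and 44 in siPcif1, so most were listed through siScram alone. How far this listing bears on the direction of the changes was not tested. With internal DRACH sites subtracted, the members went from 0.04 ± 0.067 to -0.04 ± 0.033 (SD, n = 3), and the libraries overlapped. Libraries did not overlap at 43 members (31.6%) in the lower direction, where the table gave 27%, and at 0 in the higher direction, where it gave 0.179%.

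limma called 8 members lower (5.88%, with 3.69% in the table) and 0 higher (0.0219% in the table). At an unadjusted p under 0.05, 49 were lower (36%, with 26.2% in the table) and 0 higher (0.0788% in the table). The called sites were at HMOX2, SLC35C2 (2 sites), ARL2, RPL6, SERF2, MBTPS1 and ZNF146. The count was 0 when the library medians were first set equal, as for all sites. It was 71 of 136 without siScram replicate 1, the lowest siScram library, where 12188 of all 22855 sites were called lower. Without siScram replicate 2, siPcif1 replicate 2 or siPcif1 replicate 3 it was 1, with 78, 160 and 84 of all sites called lower. Without siScram replicate 3 or siPcif1 replicate 1 it was 0, with 62 and 40 of all sites. The fit shared nearly all its variance between sites, with 91420 total degrees of freedom, so the calls are optimistic.

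HMOX2, heme oxygenase 2 (chr16:4476412, 1676 nt), had RML of 5.87, 10.6 and 19.9 in siScram and 1.06, 2.47 and 5.30 in siPcif1, a change of -1.91 ± 0.42 (SE, limma adjusted p = 0.00200). In HEK293T the groups did not overlap at this site either, with 8.64, 9.21 and 8.66 against 3.67, 3.89 and 4.99. The HEK293T table holds another HMOX2 member on an alternate contig, so reads may be shared between copies. SLC35C2, of the nucleotide sugar transporter family, had sites at chr20:46358752 and chr20:46358728. They had 3.44, 10.8 and 14.2 against 2.84, 2.30 and 2.76, and 5.01, 5.72 and 10.6 against 2.36, 2.08 and 2.69. In both the siPcif1 values were close together and the siScram values spread upward.

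ARL2, a small GTPase that acts on tubulin folding (chr11:65014168), had 3.26, 11.1 and 20.7 in siScram and 3.63, 2.50 and 2.25 in siPcif1, so its groups overlapped although it was called (limma adjusted p = 0.0140). SERF2 (chr15:43792314) had 4.62, 7.78 and 8.86 against 2.19, 3.94 and 1.66, without overlap. RPL6, a ribosomal protein, had 1.2, 1.83 and 4.75 against 0.998, 1.10 and 0.663. ZNF146 had 3.67, 5.67 and 6.65 against 1.82, 2.17 and 2.17. MBTPS1, the site-1 protease, had 1.70, 2.31 and 6.97 against 0.760, 1.25 and 2.07, which overlapped. At all 8 called sites siScram replicate 3 was the highest library.

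All 12 members at 0 to 50 nt from a start and 108 of the 111 distal ones had a negative change here. Those near the start changed by -0.12 relative to internal DRACH sites, from 0.69 ± 0.094 to 0.57 ± 0.29 (SD, n = 3), and overlapped. The 111 distal members changed by -0.09, from 0.05 ± 0.028 to -0.04 ± 0.024, with siPcif1 libraries all lower. The 1284 sites outside DRACH at 0 to 50 nt changed by -0.30 on the same scale, with all siPcif1 libraries lower. Whether these changes differ from those in HEK293T was not tested. Among the gene lists, solute carrier genes had 14 members in 6 genes, all 14 with a negative change, and their median was -0.49 where all sites of the table had -0.43. The 2 called among them were those of SLC35C2. Adrenergic regulators had 6 members in HAND1 and HAND2 with a median of -0.09, and 0 of them were called.

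In BE(2)-C with ATRA 49 of 128 members (38.3%) had a negative change, against 28.4% of all sites and 29.1% of internal DRACH sites. Their median changed by 0.07 and that of internal DRACH sites by 0.13, both with overlapping libraries, and relative to internal DRACH sites they went from -0.05 ± 0.060 to -0.11 ± 0.032 (SD, n = 3), which overlapped. limma called 0 members lower and 0 higher, and likewise 0% of all sites in both directions. At an unadjusted p under 0.05, 2 members were lower (1.56%, with 0.842% in the table) and 2 higher (1.56%, with 2.03%). Libraries did not overlap at 4 members in the lower direction (3.12%, with 1.69% in the table) and at 5 in the higher (3.91%, with 4.66%). By the authors' site calls, 78 members were called in siScram and 109 in siPcif1. The bearing of this listing on direction was not tested here either.

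Near the start the 11 members went from 0.18 ± 0.25 to -0.15 ± 0.11 relative to internal DRACH sites (SD, n = 3), with siPcif1 libraries all lower, and 10 of the 11 had a negative change. The 107 distal members went from -0.06 ± 0.035 to -0.13 ± 0.044. There the siPcif1 libraries were all lower only by a near tie, the highest at -0.08985 and the lowest siScram library at -0.08982. Without the subtraction the near-start median changed by -0.20 and the distal one by 0.06, both with overlapping libraries. Libraries did not overlap at 0 of the 11 near-start sites in the lower direction, with 1.69% in the table. The 1265 sites outside DRACH at 0 to 50 nt changed by -0.26 relative to internal DRACH sites, with all siPcif1 libraries lower. GNG2, a G protein gamma subunit (chr14:51860609, -3 nt), had the largest decrease of those named, with 7.05, 12.3 and 7.19 in siScram and 3.56, 3.79 and 4.06 in siPcif1. SAP18 had 18, 25 and 21.2 against 17.4, 12.9 and 11.9, a separation by a small margin. At 1 site HAND2, a sympathetic lineage transcription factor, had 5.36, 5.53 and 6.81 against 5.25, 5.11 and 4.71. The gene had 5 members here, of which 2 had a negative change, and their median change was 0.08. Among the increases were LRFN3, a synaptic adhesion protein, with 2.64, 4.88 and 3.55 against 7.97, 5.53 and 5.83, and TAF7, a TFIID subunit, with 4.34, 5.46 and 4.57 against 7.63, 6.12 and 6.46. RARA, retinoic acid receptor alpha, had 6.55, 7.97 and 6.68 against 10.7, 8.02 and 9.95 at chr17:40331075. These 6 were named because their groups did not overlap, and the limma adjusted p of each was 1.

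The membership of the tables overlapped in part. Of the members, 88 were in both the HEK293T table and that for BE(2)-C without ATRA, which was 8.21% of the first and 64.7% of the second. HEK293T and BE(2)-C with ATRA shared 80 (7.46% and 62.5%), and the BE(2)-C tables shared 54 (39.7% and 42.2%). Among the 40 sites found in all 3 tables, negative changes numbered 20 in HEK293T, 40 in BE(2)-C lacking ATRA and 15 with it. Against internal DRACH sites their median changed by 0.07, -0.08 and -0.07, each with overlapping libraries.

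Of the 8 shared sites of highest mean rank, ADK, ARL2, MTHFS and NDUFA13 lay within 11 nt of a start, and SAP18, HMOX2 and ST3GAL2 (2 sites) farther away. MTHFS, a folate enzyme (chr15:79897011), had 8.72, 8.06 and 16.1 against 3.57, 3.49 and 11.2 in HEK293T, and 7.33, 8.90 and 9.60 against 2.86, 6.63 and 4.56 in BE(2)-C without ATRA. With ATRA it had 12.7, 6.83 and 7.55 against 8.30, 6.29 and 8.01. Only the groups of BE(2)-C without ATRA were apart. ST3GAL2, a sialyltransferase, had at chr16:70398859 10.8, 12 and 12.6 against 7.20, 8.77 and 12 in HEK293T, and 6.02, 12.2 and 11.7 against 3.34, 4.43 and 5.16 in BE(2)-C without ATRA. With ATRA the same site had 7.37, 7.07 and 4.59 against 7.77, 7.25 and 8.44.

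NDUFA13 (chr19:19516214) had 6.52, 33.4 and 65 in siScram and 7.42, 11.8 and 10.9 in siPcif1 in BE(2)-C without ATRA, and ADK had 11.4, 25.6 and 56.1 against 7.95, 12.7 and 7.18. In both sites the siScram libraries ranged widely, replicate 1 being the lowest and replicate 3 the highest, and the groups overlapped. With ATRA, ADK had 18, 41 and 3.59 against 27.4, 23.2 and 21, so that its siScram libraries lay on either side of siPcif1. ARL2 had 20.1, 20.5 and 7.60 against 25.6, 7.39 and 10.2 with ATRA, and 7.63, 6.36 and 5.99 against 3.82, 5.83 and 7.30 in HEK293T.

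**Figure D4:**
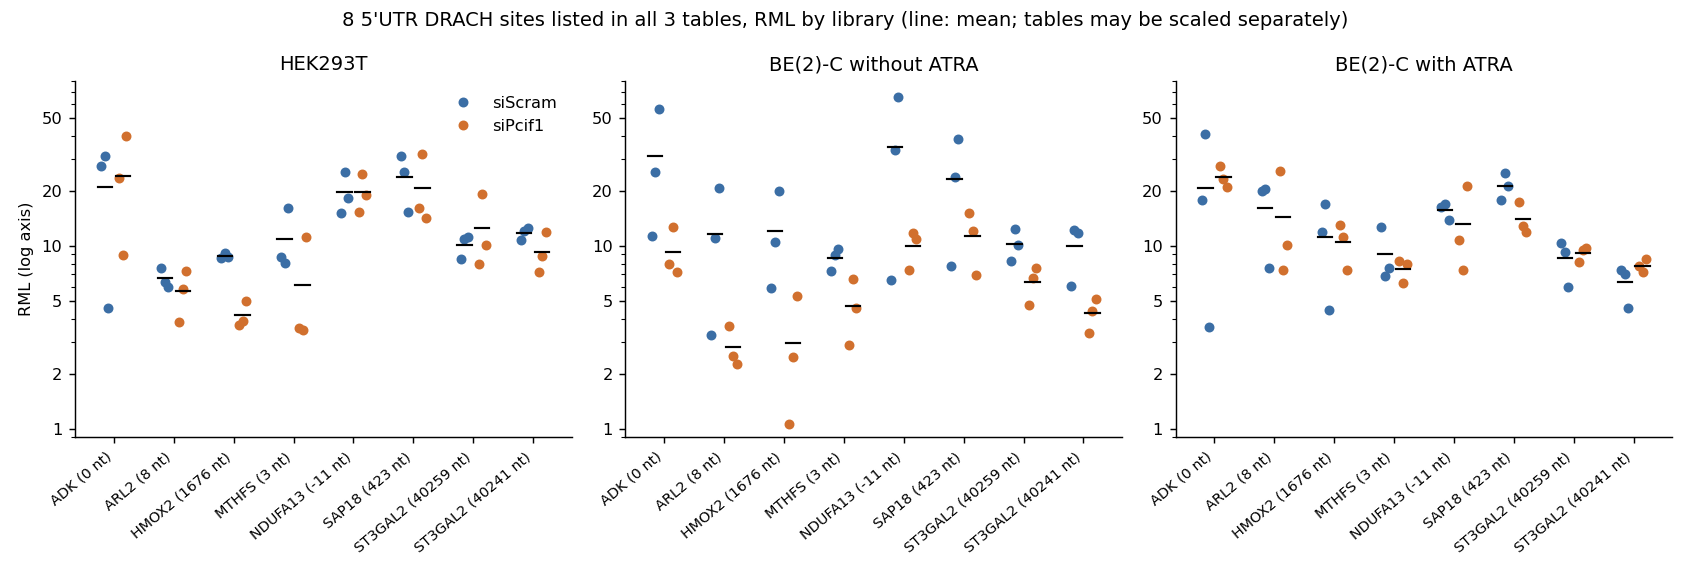
RML on a log axis in each library (points) with the group mean (line), for 8 members listed in all 3 tables, which may be scaled separately. Each label gives the distance from the nearest RefSeq start. In BE(2)-C without ATRA the siPcif1 mean is below the siScram mean at each of the 8 sites, as at HMOX2 with 1.06, 2.47 and 5.30 against 5.87, 10.6 and 19.9.

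Site calls differed between the groups in the authors' deposited table of each context. At a p-value of 0.05 or less in the authors' deposited table, 990 HEK293T members (92.4%) were called as methylated in siScram, 745 (69.5%) in siPcif1 and 663 (61.8%) in both. All sites of that authors' deposited table gave 89.9%, 70.3% and 60.2%, near the members' shares. In the authors' deposited table without ATRA the numbers were 125 (91.9%), 44 (32.4%) and 33 (24.3%), against 91%, 49.9% and 40.8% of all its sites. In the authors' deposited table with ATRA they were 78 (60.9%), 109 (85.2%) and 59 (46.1%), against 59.6%, 81.7% and 41.3%. A call depends on the libraries' depth as well as on the level, and depth per site is unknown.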

How the data were processed

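The authors deposited, for each context, a site table holding, per the file headers, a ratio (RML) for each m6ACE library, group means, p-values and a log2 value comparing siScram with siPcif1. Tools named in the submitters' processing notes are bcl2fastq 2.20, cutadapt 3.7, Bowtie2, STAR and DESeq2, with hg38, and their order and settings are not given. The smaller of the deposited p-values for site calling was at most 0.05 in every row. The p-value deposited for the group difference matched a one-sided test.

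Changes here are siPcif1 minus siScram of log2(RML + the 5th percentile of the table, 0.298 in HEK293T, 0.502 without and 0.857 with ATRA), which understates the change of low sites. limma 3.58.1 (R 4.3.3, lmFit, eBayes with trend) was fitted to each whole table, with Benjamini-Hochberg adjustment at 0.05. It was tested on simulated data with independent noise in each site and library. Shifts of a whole library were not simulated, so that test cannot vouch for calls where libraries shift. Medians were taken per library. Distances run to the nearest RefSeq start (GRCh38.p14) of the gene, from gene bounds and promoter entries, and 44, 1 and 3 members had none. They are differences of genomic position and include introns.

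Members and lists were chosen with earlier results of these data known, and the distance classes after their values were seen. Named sites were, per context, members at or above the median level with non-overlapping groups (5 largest decreases, 3 largest increases), the 3 highest in siScram and those called. For HEK293T the 5 highest at 0 to 50 nt and the 5 highest over 100 nt downstream of the gene start, by mean log2 level over both groups, were added. So were the 8 of highest mean rank in all 3 tables, 2 per gene list with at least 3 sites, and any in PCIF1, METTL3, PCF11, FTO or MYCN. Alternatives were another centring, each library left out, a filter, other pseudocounts, no variance trend, a replicate block and doubled deposited p-values.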

Additional observations from a re-analysis of the deposited data

Results flagged for a closer look

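A member of NFE2L1, a stress-response transcription factor gene (chr17:48050808, 2027 nt from a start), moved in opposite directions in 2 contexts, every siPcif1 library lying on one side of siScram in each. In HEK293T its RML was 2.54, 2.98 and 3.33 in siScram and 4.13, 3.34 and 4.79 in siPcif1, a separation by a very small margin. The log2 change was 0.42 (limma adjusted p = 0.725). In BE(2)-C without ATRA the RML was 3.14, 2.92 and 4.43 against 1.91, 2.71 and 2.14, a change of -0.53 (limma adjusted p = 0.278). The whole BE(2)-C table was lower in siPcif1, with a median change of internal DRACH sites of -0.51. The site was flagged for this pattern, and the difference was not tested.

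A member of LRRN3, a leucine-rich repeat membrane protein gene (chr7:111122598), did so between the BE(2)-C tables. Without ATRA its RML was 3.01, 3.34 and 5.01 in siScram and 2.07, 1.89 and 2.24 in siPcif1. The log2 change was -0.71 (limma adjusted p = 0.176). With ATRA the RML was 6.92, 6.37 and 4.49 against 7.73, 7.47 and 7.98, a change of 0.36 that limma did not call either. Internal DRACH sites as a whole also moved apart, by -0.51 and 0.13. This site too was flagged for its pattern, and the difference was not tested.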

How the results depend on the processing

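The number of members called lower in BE(2)-C without ATRA, 8, was 0 after centring each library on its median, 0 without a variance trend, 0 from the deposited p-values doubled and 23 with the replicate block, and 0 to 71 with 1 library left out. Of all 22855 sites, 843 were called lower in the main fit, 2935 with the block and 40 to 12188 with 1 library left out. The other counts of members called stayed at 0 under all settings tried, the block included. Whether replicate numbers pair the samples is not known here. Correlation over sites, given next, cannot show a shift that whole libraries of 1 number share. Same-numbered deviations correlated at 0.0202, 0.0148 and 0.00429 in HEK293T, 0.116, 0.00480 and 0.00858 in BE(2)-C without ATRA and -0.309, 0.0620 and -0.258 with ATRA. Only in HEK293T did all siScram libraries correlate best with the siPcif1 library of their own number. The median change in HEK293T, -0.10, was 0.0198 after centring and -0.217 for GGACH members. Relative to internal DRACH sites, -0.11, it was -0.0660 with the median as pseudocount and -0.225 for GGACH members. In BE(2)-C without ATRA the median change, -0.60, was -0.11 after centring, and the relative change, -0.08, was -0.00238 for GGACH members, which gave -0.13 with ATRA in place of -0.07. Settings added after seeing the data concern the HEK293T distance classes. The near-start change, -0.70, was -0.80 with distance from the outermost gene bound, -0.80 for GGACH members, -0.55 for other motifs, and -0.76 and -0.40 with the 1st percentile and the median as pseudocount. The distal change, 0.01, was -0.0711 with 1 site per gene, -0.0749 for GGACH members and 0.0834 for other motifs. With 1 library left out it ranged from -0.0135 to 0.0347. In all, 85 of 100 alternatives for median changes moved by less than the replicate SD, and 74 of 84 for call counts stayed within 1.5 times. The 10 that moved further all concerned the 8 members called lower in BE(2)-C without ATRA. The other call counts were 0 throughout, so the pooled share does not describe how stable those 8 calls were. The median change with ATRA was 0.07 and ranged from -0.0388 (without siScram replicate 3) to 0.203 with 1 library left out, within its replicate SD. After centring each library on its median it was -0.0934, of the other sign, also a move within that SD. The cause was not tested in any case. Depth per site is unknown, so what it limits cannot be stated.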
